A study of Mus musculus with 30 samples.

Results

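Expressed antisense RNA genes are genes that GENCODE vM21 annotates as antisense, that is, non-coding genes transcribed from the strand opposite to another gene. They were chosen by a mean level of at least 5 CPM (a gene's count over all gene counts of the library, scaled to a common total) across 23 single mouse embryos, leaving out the small nucleolar RNA host genes named Snhg, Gas5 and Dancr. Of 2959 antisense genes in the count files, 104 met the rule, out of 55487 genes in all, and 1 gene (Snhg9) was left out by its name. Since the rule averaged over all genotypes, 40 of the 104 genes had a mean under 5 CPM in the 16 wild-type and het embryos and entered only through their level in the null embryos. The other 64 reached 5 CPM without them, and 6 of these had a mean under 5 CPM in the nulls. The main counts of changed genes are therefore also given for the 64 alone, since the rule made a rise in nulls likely for the 40. The lowest members were Appbp2os (mean 5.03 CPM) and Gm9725 (5.03 CPM), and the genes just under the minimum were Gm14798 (4.94 CPM) and AC154766.4 (4.87 CPM).

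The embryos came from matings of mice het for a Dis3 null allele, which lacks exons 3 to 5 after CRISPR-Cas9 cutting, and were collected one by one and genotyped from their own DNA. The E2.5 set held 6 wild-type (WT), 2 het and 4 null embryos and the E2.75 set 3 WT, 5 het and 3 null embryos. RNA was captured on oligo-dT beads, with ERCC spike-ins added to each embryo, so RNA without a poly(A) stretch was not selected for. A second assay, ChIP-seq in mouse embryonic stem cells (mESCs) transfected with Pou6f1-mCherry, gave peaks of the transcription factor POU6F1 in 2 anti-mCherry replicates.

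DIS3 is a ribonuclease of the RNA exosome, the complex that degrades RNA from its 3′ end and trims the ends of stable small RNAs. Many promoters fire in both directions, and the upstream or antisense transcript is usually short-lived because the nuclear exosome removes it, helped by adaptor complexes that bring RNA to the helicase MTREX. Some antisense RNAs are stable and act at imprinted loci, such as Kcnq1ot1 and Nespas, which lie over Kcnq1 and Gnas. The question the comparisons address is which of these RNAs differ between embryos with and without functional Dis3.

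Libraries held 1690192 to 14015980 gene counts (median 8030848), and the lowest were E2.75 Null replicates 1 and 2. Dis3 itself was 18.0 to 147 CPM in WT embryos (median 107 CPM), 30.4 to 59.2 CPM in hets (median 43.8 CPM) and 0 to 21.5 CPM in nulls (median 12.8 CPM), so that E2.5 WT replicate 6, at 18.0 CPM, lay within the range of the nulls. Of 10 morula and early blastocyst markers, all were detected (summed level 551 to 2724 CPM over the embryos), and 2 of them were called down between null and het. Of 8 markers of cumulus and granulosa cells, Inha and Ptx3 were at 0 in every library and the summed level was 0 to 24.5 CPM. The 6 oocyte markers summed to 8.10 to 58.3 CPM in WT and het embryos and 16.6 to 59.7 CPM in nulls, with 0 of the 6 called between null and het.

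The 104 genes lay on 19 chromosomes and had a median of 2309.5 exonic bases (494 to 93092). In 46 pairs the member began inside a protein-coding gene of the other strand and ran out past that gene's start, or began within 1 kb of it (start to start). A further 34 members began and ended inside the coding gene, 16 overlapped it at their 3′ ends (end to end), 5 spanned it, and 3 had no coding partner by the rule, which took the coding gene that overlaps the member most or else starts within 1 kb. Single-exon genes numbered 15. Exon bases were shared with exons of an opposite-strand gene in 75 members, whereas 6 members had no exon base inside any gene on the other strand. This matters for the counts, because the authors counted reads without regard to strand: reads of a member and of its sense gene cannot be told apart where they overlap, and reads from an intron of the sense gene fall to the member.

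Of 104 genes, 39 were called higher and 1 lower in null than in het embryos, whereas 3.67% of 13415 genes tested were called up and 2.06% down (edgeR quasi-likelihood test, adjusted p under 0.1 and log2 fold change beyond 1). Among the 64 genes that reached 5 CPM in WT and het embryos, 14 were called up (21.9%) and 1 down, with a median log2 fold change of 0.67. Among the 40 genes that entered through the nulls, 25 were called up and 0 down, with a median of 3.24. The median over all genes tested was 0.02, so changes are relative to a centre near 0, whereas scaling to the ERCC spike-ins shifted that median by -1.08. Taking instead the 73 antisense genes with a mean of at least 5 CPM in the 9 WT embryos so that null and het values played no part in the choice, 13 were called up. Fewer cells that express a gene and less of its RNA per cell cannot be told apart in these whole-embryo counts.

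The share of gene counts that fell on the 104 genes was 0.268% to 0.416% in the 7 null embryos, 0.103% to 0.162% in the 7 hets and 0.127% to 0.214% in the 9 WT embryos. The choice of members raised this share in nulls, since 40 genes entered through their level there. Over the 64 genes that did not need the nulls the share was 0.218% to 0.282% in nulls, 0.0938% to 0.153% in hets and 0.117% to 0.206% in WT embryos, without overlap. Leaving the 4 most abundant members out of the 64, it was 0.125% to 0.180% in nulls and 0.0614% to 0.111% in the 16 others. Reads outside annotated exons, which include intron reads, also made up more of the null libraries (32.3% to 43.9%) than of the others (20.99% to 33.4%), as the plot of both shares shows. The part of such reads in the antisense counts was not tested. The 6 members that lie outside every opposite-strand gene are described separately.

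**Figure D1:**
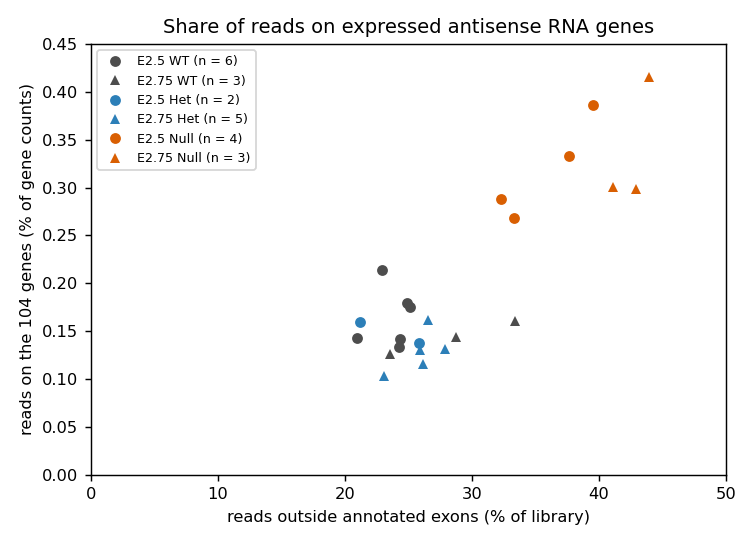
Share of gene counts on the 104 expressed antisense RNA genes (%) against the share of reads outside annotated exons (%), 1 point per embryo, with colour for genotype and shape for stage. The 7 null embryos lie at 0.268% or more and 32.3% or more, while the WT and het embryos lie at 0.214% or less and 33.4% or less, a gap in the share to which the choice of members contributed.

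The 8 largest rises were Ppp1r18os, Kif16bos, 2900060B14Rik, B930036N10Rik, AC090479.2, AC132307.3, Gm10244 and Gm9725. None but 2900060B14Rik averaged 5 CPM in WT and het embryos. Levels below are CPM after TMM scaling, as lowest, median and highest embryo of a genotype.

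B930036N10Rik (ENSMUSG00000091993) is a single-exon gene of 3544 bases on the minus strand of chromosome 1 (GRCm38 chr1:171500568-171504111), and its start lies 633 bases inside Alyref2, a gene for an mRNA export adaptor. Its level was 0, 1.56 and 4.45 CPM in WT embryos, 0.518, 0.904 and 5.04 CPM in hets, and 36.5, 59.8 and 191 CPM in nulls. All 7 nulls were above all 16 other embryos. The log2 fold change against het was 5.58 (SE 0.74, adjusted p = 0.000179) and against WT 5.28 (adjusted p = 1.8e-05, edgeR). Alyref2 was low throughout, at 0.17 to 6.55 CPM in nulls and 0 to 3.06 CPM in hets (log2 fold change 0.77, adjusted p = 0.731). Gene models put a small nuclear RNA of 116 bases, Gm24871, inside B930036N10Rik on the same strand (chr1:171503048-171503163), which RefSeq annotates as U5 spliceosomal RNA. Gm24871 itself was listed at 0 counts in every library.

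2900060B14Rik (ENSMUSG00000107722, chr1:118458652-118459267, minus strand) also carries a small nuclear RNA gene. Its single exon of 616 bases lies in an intron of Clasp1, which encodes a microtubule-binding protein, 70209 bases from the start of Clasp1. The annotated gene begins 2 bases before the 125-base small nuclear RNA Gm22710 (chr1:118459141-118459265) and runs 489 bases past its 3′ end. Its first 200 bases (chr1:118459068-118459267, minus strand) are printed because they hold the whole small RNA, in capitals, and the beginning of the stretch after it.
2900060B14Rik, first 200 bases: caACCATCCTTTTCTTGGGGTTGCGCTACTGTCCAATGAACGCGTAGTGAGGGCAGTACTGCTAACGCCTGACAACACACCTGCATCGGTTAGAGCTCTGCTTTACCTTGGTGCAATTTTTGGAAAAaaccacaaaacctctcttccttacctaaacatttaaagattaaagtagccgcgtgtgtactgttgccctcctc

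The level of 2900060B14Rik was 0, 4.34 and 29.2 CPM in WT embryos, 0, 0.0647 and 22.1 CPM in hets and 85.1, 165 and 547 CPM in nulls, and again all 7 nulls exceeded every other embryo. Its log2 fold change was 5.74 against het (SE 1.24, adjusted p = 0.00751) and 5.16 against WT (adjusted p = 0.00465, edgeR). It was the fourth most abundant member and supplied a mean of 6.56% of the members' counts in nulls against 0.334% in the other embryos. Clasp1 did not follow it (log2 fold change -0.22, adjusted p = 0.907), with 2.21 to 49.3 CPM in nulls and 5.10 to 31.8 CPM in hets. As with B930036N10Rik, the small RNA had 0 counts of its own, since a read within it also lies within the longer gene and is then ambiguous to the counting program. Reads that make up the level of 2900060B14Rik therefore reach beyond the ends of Gm22710.

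Other members that hold a small RNA gene on their strand were AC166172.4 (a miRNA gene, Gm24970), Rab26os (the small nucleolar RNA Snord60) and Tug1 (4 short RNAs of no stated class). AC166172.4 was 14.9, 32.3 and 102 CPM in nulls and 0.123, 1.60 and 6.93 CPM in hets, with all 7 nulls above all others (log2 fold change 3.60, adjusted p = 0.00556, edgeR). Rab26os was 3.08 to 10.3 CPM in nulls and 1.06 to 20.8 CPM in hets and was not called (adjusted p = 0.946). Holding a small RNA was thus not shared by all that rose, nor did every such gene rise.

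Ppp1r18os (ENSMUSG00000087443, chr17:35860918-35866886, minus strand, 784 exonic bases) had the largest fitted change. It spans Nrm, which encodes the nuclear envelope protein nurim, and starts 1293 bases from Ppp1r18. It was 0, 0 and 1.85 CPM in WT embryos, 0, 0 and 0.532 CPM in hets and 9.46, 14.4 and 39.9 CPM in nulls, from 27, 6 and 574 counts in all. The log2 fold change was 7.32 against het (SE 1.30, adjusted p = 0.00149) and 5.91 against WT (adjusted p = 0.00101, edgeR), and its size against het rests on those 6 counts. Nrm was 0.34 to 11.6 CPM in nulls and 0 to 16.9 CPM in hets, overlapping throughout.

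Kif16bos (ENSMUSG00000086504, chr2:142902965-142903572, plus strand, 495 exonic bases) starts 1434 bases from Kif16b, a kinesin gene, and touches no opposite-strand gene. Its level was 0, 0 and 1.02 CPM in WT embryos, 0, 0.0647 and 1.21 CPM in hets and 1.83, 12.5 and 60.1 CPM in nulls. The nulls were spread over a wide range but none reached down to the others (log2 fold change 6.14, SE 1.32, adjusted p = 0.00712, edgeR).

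Gm10244 (ENSMUSG00000068601, chr6:39419887-39421294, plus strand) runs away from Mkrn1, which encodes a ubiquitin ligase, from a start 575 bases inside it. Its level was 0.223, 2.76 and 9.25 CPM in WT embryos, 0.887, 1.27 and 5.73 CPM in hets and 35.9, 58.1 and 122 CPM in nulls. Mkrn1 was among the abundant partners, at 1009 to 1692 CPM in nulls and 1051 to 1586 CPM in hets, and its log2 fold change was 0.04 (adjusted p = 0.953) against 4.83 for Gm10244 (SE 0.68, adjusted p = 0.000239, edgeR). Gm9725 (ENSMUSG00000037982, chr8:81013576-81061195, plus strand) lies likewise across the start of Usp38, a deubiquitinase gene. It was 0, 0.29 and 3.04 CPM in WT embryos, 0, 0.86 and 1.79 CPM in hets and 6.03, 10.5 and 37.0 CPM in nulls (log2 fold change 4.32, SE 1.19, adjusted p = 0.0378, edgeR), while Usp38 had a log2 fold change of -0.86 (adjusted p = 0.0891), short of the limit on size.

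The remaining pair lies on chromosome 18. AC090479.2, inside Rbbp8 (a gene for a DNA end-processing protein), was 3.59, 31.8 and 34.2 CPM in nulls against 0, 0.603 and 1.23 CPM in hets (log2 fold change 5.27, SE 0.94, adjusted p = 0.00149, edgeR). Its exon lies wholly within Rbbp8, 83.0% of it in introns. AC132307.3, across the start of Zfp532, was 2.55, 16.5 and 33.8 CPM in nulls against 0, 0 and 3.32 CPM in hets. It was the weakest of the 8 (log2 fold change 4.84, SE 1.42, adjusted p = 0.0529), with 5 of 7 nulls above every other embryo. The call was lost without E2.5 Null replicate 4, E2.75 Het replicate 4 or E2.75 Het replicate 5.

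**Figure D2:**
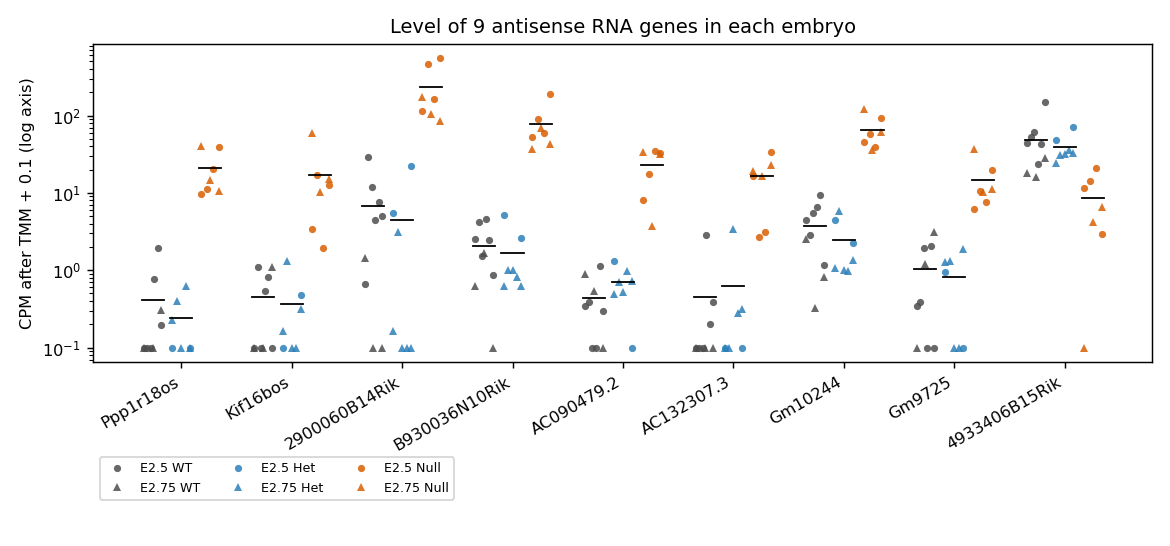
Level (CPM after TMM + 0.1, log axis) of the 8 members with the largest rises and the 1 member that fell, in each of the 23 embryos, with black lines at genotype means. In 7 of the 8 rising genes all nulls lie above all WT and het embryos, and for 4933406B15Rik 6 of 7 nulls lie below all of them.

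Across the members, 20 of 104 had all 7 nulls above all 16 other embryos, 5 among the 64 and 15 among the 40, and 0 had all nulls below. Over all genes tested the shares were 1.24% above and 0.0596% below. Of the 39 rises against het, 31 were also called up against WT, where 35 members rose and 1 fell (3.66% and 1.59% of all genes tested), or 10 and 1 of the 64. The null embryos are the same in both comparisons. Of the 39, 31 stayed called when any single one of the 14 null and het embryos was left out.

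The 14 genes called up among those that reached 5 CPM in WT and het embryos had smaller changes. Besides 2900060B14Rik they were 1600020E01Rik, 4732440D04Rik, A430078I02Rik, AC132367.1, Gm16185, Gm21917, Gm26766, Gm32511, Gm44777, Gm9888, Gt(ROSA)26Sor, Platr31 and Trmt61b. Of these, 1600020E01Rik and Gt(ROSA)26Sor are given in full, a choice made after their values were seen. 1600020E01Rik, whose start lies 74 bases from that of Pcbp1 (an RNA-binding protein gene), was 7.30, 25.6 and 35.0 CPM in WT embryos, 6.33, 14.1 and 22.1 CPM in hets and 41.9, 59.99 and 116 CPM in nulls. All nulls were above all others (log2 fold change 2.30, SE 0.36, adjusted p = 0.000433, edgeR). Pcbp1 also had every null above every other embryo, with a median of 822 CPM in nulls, 366 CPM in hets and 290 CPM in WT embryos. Against het it stayed under the limit on size (log2 fold change 0.95, adjusted p = 0.0213, edgeR). Against WT it was called up (log2 fold change 1.23, adjusted p = 0.00108, edgeR). Gt(ROSA)26Sor, known as the locus into which mouse transgenes are often placed, was 46.8, 86.2 and 166 CPM in nulls, 20.9, 25.1 and 38.9 CPM in hets and 18.98, 42.3 and 90.6 CPM in WT embryos. Its nulls exceeded every het, but only 3 exceeded every WT embryo (log2 fold change against het 1.71, SE 0.34, adjusted p = 0.00391, edgeR). Hets came mostly from E2.75 and nulls mostly from E2.5, and the merged fit held no term for stage. A gene that falls with stage can thus appear raised against het in that fit. Trmt61b had log2 fold changes of 1.65 against het, 0.59 against WT and -1.51 between the stages of WT embryos. With stage as a covariate 38 of the 39 calls were kept.

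One gene fell. 4933406B15Rik (ENSMUSG00000112421, chr12:80583011-80597140, minus strand) lies inside Galnt16, which encodes a glycosyltransferase, with 87.7% of its exon bases in introns of that gene. Its level was 15.9, 43.4 and 149 CPM in WT embryos, 24.2, 32.7 and 71.5 CPM in hets and 0, 6.51 and 21.1 CPM in nulls. All 7 nulls were below all hets and 6 were below every other embryo. The log2 fold change was -2.18 against het (SE 0.58, adjusted p = 0.0309) and -2.48 against WT (adjusted p = 0.00985, edgeR). Galnt16 was 0 to 31.9 CPM in nulls and 1.69 to 10.8 CPM in hets (log2 fold change 0.54, adjusted p = 0.807).

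The 4 most abundant members were A530040E14Rik, Tug1, Kcnq1ot1 and 2900060B14Rik. Tug1, a broadly expressed RNA needed for sperm formation, was 112, 137 and 240 CPM in WT embryos, 57.2, 187 and 236 CPM in hets and 202, 284 and 338 CPM in nulls. It was not called (log2 fold change 0.79, SE 0.26, adjusted p = 0.0919, under the limit on size), and its value turned to -0.31 when libraries were scaled to the ERCC spike-ins. A530040E14Rik was 76.6, 249 and 812 CPM in WT embryos, 83.8, 109 and 381 CPM in hets and 50.8, 230 and 450 CPM in nulls, so that genotypes overlapped widely (log2 fold change 0.60, adjusted p = 0.557, and -0.59 with spike-in scaling). Per kb of exon the nulls averaged 104 CPM for A530040E14Rik, 27.96 CPM for Tug1, 3.19 CPM for Kcnq1ot1 and 384 CPM for 2900060B14Rik, which made the last the densest of the 4 in nulls only. In WT and het embryos it averaged 5.12 CPM before TMM scaling over 616 exonic bases, against 240 CPM over 2323 for A530040E14Rik.

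Of 27 RNAs listed for a known role, not all of them antisense, Kcnq1ot1 and Nespas were members. Tug1 was not on that list. Kcnq1ot1, an imprinted transcript of 93092 bases that silences neighbouring genes on the paternal chromosome, was 26, 100 and 281 CPM in WT embryos, 54.6, 123 and 250 CPM in hets and 135, 284 and 591 CPM in nulls, with 4 of 7 nulls above every other embryo. Its log2 fold change was 1.07 against het (SE 0.42, adjusted p = 0.166) and 1.2 against WT (adjusted p = 0.0884, a call). Against het it was called up with stage as a covariate (1.35, adjusted p = 0.0293) and with a replicate block (1.57, adjusted p = 0.0794). Its sense gene Kcnq1, a potassium channel gene, had at most 0.413 CPM in any embryo. Nespas was 2.12, 6.41 and 21.1 CPM in nulls and 0, 3.38 and 7.49 CPM in hets and was not called (log2 fold change 1.40, SE 0.99, adjusted p = 0.511), while the overlapping Gnas, which encodes a G protein subunit, was called up (log2 fold change 1.34, adjusted p = 0.0879).

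The position relative to the sense gene came from the annotation and not from the counts. Over all genes tested 3.67% were called up and the median log2 fold change was 0.02, which stands beside each class below. Of 46 start-to-start members 23 were called up, with a median log2 fold change of 2.24. Of 34 members inside a coding gene 8 were called up (median 0.68), and of 16 end-to-end members 5 (median 1.00). Within the 64 genes the counts were 6 of 23 (median 1.31), 4 of 26 (median 0.40) and 4 of 12 (median 0.53), so there the called shares of the classes lay closer together. The partner was the gene of most overlap, so an end-to-end member can start near another coding gene. Gt(ROSA)26Sor, for instance, starts 32 bases from Setd5. With an opposite coding start within 1 kb, 19 of 45 members were called up (median 1.92), and without one 20 of 59 (median 1.07). Within the 64 these were 5 of 21 (median 1.31) and 9 of 43 (median 0.60). No test between classes was made. Single-exon genes were called up in 11 of 15 cases and genes with several exons in 28 of 89, but only 4 of the single-exon genes reached 5 CPM in WT and het embryos, and 1 of those was called up. Members with most of their exon bases in opposite introns, where intron reads of the sense gene can enter, were called up in 10 of 45 cases (median 0.76), and the others in 29 of 59 (median 2.10). Within the 64 these were 6 of 34 (median 0.57) and 8 of 30 (median 1.2).

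**Figure D3:**
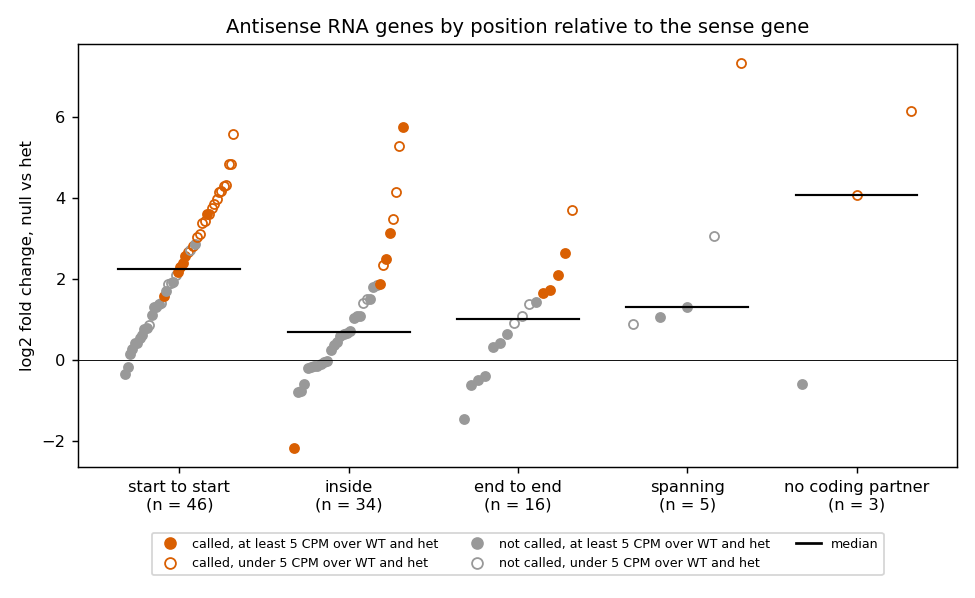
Log2 fold change (null vs het) of each of the 104 members, grouped by position relative to the coding gene on the other strand, with colour for genes called and open circles for genes under 5 CPM in WT and het embryos. Medians (black lines) are 2.24 for start to start, 0.68 for inside and 1.00 for end to end. All 40 open circles lie above 0, which the rule made likely, so nothing is read from their place. Of the 64 filled circles 46 lie above 0, beside 6858 of the 13415 genes tested.

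The 6 members with no exon base inside an opposite-strand gene were Kif16bos, D730005E14Rik, 1810013D15Rik, Gm11423, Gm4285 and 2810001G20Rik. The first 4 were called up (3.67% of all genes tested), and all 4 had entered only through the nulls, whereas the last 2 had not, so nothing is read from this count. D730005E14Rik was 13.8, 25.1 and 85.8 CPM in nulls and 0.177, 1.81 and 7.23 CPM in hets (log2 fold change 4.07, adjusted p = 0.0197, edgeR), though 676 of its bases are shared with Apobec3 on the same strand. 1810013D15Rik was 1.41, 15.0 and 27.2 CPM in nulls against 0.129, 0.369 and 2.11 CPM in hets (log2 fold change 4.28, adjusted p = 0.029, edgeR), but WT embryos reached 15.4 CPM and only 2 nulls exceeded all of them. Gm11423 was 3.95, 18.4 and 42.3 CPM in nulls and 0, 1.42 and 9.34 CPM in hets (log2 fold change 3.09, adjusted p = 0.0317, edgeR).

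4 of the 6 lie back to back with a coding gene, and for these the bases between both starts are printed, as the closest paired starts among members that share no base with their partner. Each sequence reads along the member's strand from 20 bases before the partner's start to 20 bases after the member's, and capitals run from the partner's first base to the member's first base. The intervals are chr11:82781022-82781128 (minus strand, Gm11423 and the DNA ligase gene Lig3), chr3:157925057-157925240 (plus, 1810013D15Rik and Cth, a gene of cysteine synthesis), chr14:75844944-75845113 (minus, Gm4285 and Tpt1) and chr11:64079448-64079504 (plus, 2810001G20Rik and Cox10, a gene of haem A synthesis).
Gm11423 and Lig3: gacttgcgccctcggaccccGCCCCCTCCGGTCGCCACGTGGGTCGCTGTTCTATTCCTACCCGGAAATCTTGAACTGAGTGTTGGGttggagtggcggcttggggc
1810013D15Rik and Cth: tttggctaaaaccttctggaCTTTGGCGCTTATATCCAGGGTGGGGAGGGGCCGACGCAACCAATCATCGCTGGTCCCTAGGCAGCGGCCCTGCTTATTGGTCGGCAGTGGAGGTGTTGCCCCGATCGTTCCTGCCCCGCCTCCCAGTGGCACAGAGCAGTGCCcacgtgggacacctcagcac
Gm4285 and Tpt1: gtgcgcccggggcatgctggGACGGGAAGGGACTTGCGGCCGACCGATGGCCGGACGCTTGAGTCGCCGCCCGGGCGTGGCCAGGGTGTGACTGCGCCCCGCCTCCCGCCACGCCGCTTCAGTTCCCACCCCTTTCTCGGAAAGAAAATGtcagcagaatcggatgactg
2810001G20Rik and Cox10: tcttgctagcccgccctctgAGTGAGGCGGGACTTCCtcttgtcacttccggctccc

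The starts of these pairs lie 66, 143, 129 and 16 bases apart. Gm4285 was 5.26, 6.35 and 14.8 CPM in nulls and 2.82, 7.98 and 25.9 CPM in hets, and 2810001G20Rik was 0.68, 12.8 and 19.7 CPM in nulls and 1.83, 7.38 and 32.6 CPM in hets. Genotypes overlapped throughout for both (adjusted p = 0.78 and 0.942, edgeR). The partners were not called in any of the 4 pairs, with log2 fold changes of -0.41 for Lig3, 0.76 for Cth, 0.06 for Tpt1 and -0.43 for Cox10. The split follows how the genes entered: in WT and het embryos Gm11423 and 1810013D15Rik averaged 3.92 and 2.34 CPM and passed the minimum only through the nulls, while Gm4285 and 2810001G20Rik averaged 10.8 and 7.77 CPM and passed without them.

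Sense partners as a group moved little. Of 90 partner genes tested, 4 were called up and 0 down between null and het (3.67% and 2.06% of all genes tested), with a median log2 fold change of 0.23. For the 37 called-up members whose partner was tested, the partner median was 0.31 (-0.99 to 2.45), and 1 partner was called up. Over all 91 members with a tested partner, whether called or not, 74 had the larger log2 fold change. The choice of members contributed to this count, since the 40 genes that entered through the nulls had a median of 3.24. The other 64 had a median of 0.67, and the count was not split between the 2 sets. The pair called on both sides was A430078I02Rik (log2 fold change 2.64, adjusted p = 0.0211) and C87436 (2.45, adjusted p = 0.000402, edgeR), which changed alike. The other partners called between null and het were Wdr38 (2.27, opposite Gm13496), Purb (1.42, opposite Gm11973) and Gnas (1.34, opposite Nespas), all opposite members that were not called.

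**Figure D4:**
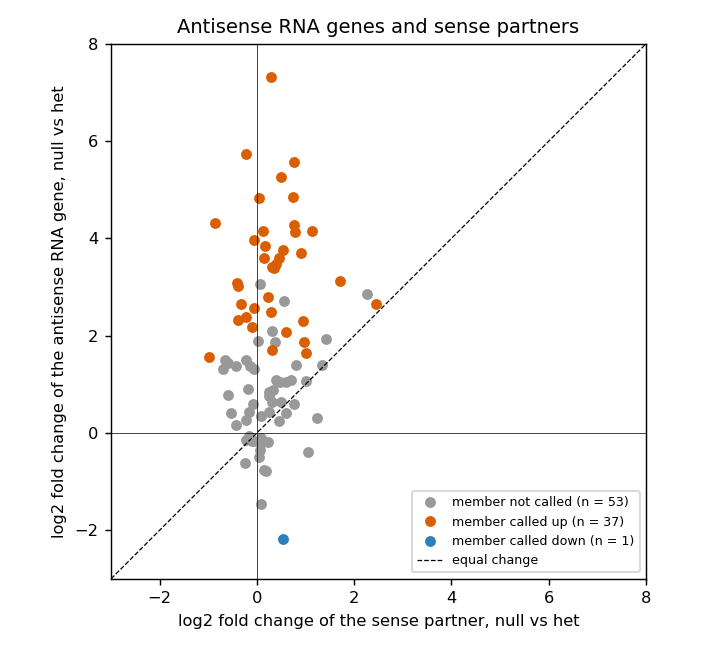
Log2 fold change (null vs het) of each member against that of its sense partner, for the 91 members whose partner was tested, coloured by the call of the member. The 37 members called up lie above the line of equal change, with partners between -0.99 and 2.45. They were picked by a log2 fold change above 1 in this same comparison, so nothing is read from their place above the line.

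By stage, the members' median log2 fold change between null and het was 1.34 at E2.5 and 1.49 at E2.75 (0.48 and 0.83 over the 64), beside 0.03 and -0.04 for all genes tested. With only 2 hets at E2.5, 0 members were called up and 0 down by edgeR (33 had an unadjusted p under 0.05), where 0% and 0.0126% of all genes were called, while DESeq2 called 28 up and 1 down. Against the 6 WT embryos of E2.5, 12 members were called up and 1 down (1.36% and 0.459% of all genes), or 4 and 1 of the 64. Among the rises were Ppp1r18os, 2900060B14Rik, B930036N10Rik, AC090479.2, Gm10244 and Gm10138, and the gene that fell was again 4933406B15Rik. At E2.75, 31 were called up and 1 down against het (2.51% and 2.31% of all genes), or 11 and 1 of the 64, and 29 of the rises were among the 39 of the stages combined. The count of 31 was 12 without E2.75 Null replicate 1 and 17 without replicate 3. Against the 3 WT embryos of E2.75, 24 were called up and 1 down (2.19% and 2.35% of all genes), or 9 and 1 of the 64. The difference between the stages was called for 0 members and 0% of genes (edgeR interaction test, with 2 members and 1234 of 18677 genes at an unadjusted p under 0.05, and 0 members by DESeq2).

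Het and WT embryos were compared in the same fit. Of the members 0 were called up and 0 down (0% of genes tested in either direction), 8 had an unadjusted p under 0.05, DESeq2 also called 0, and the median log2 fold change was -0.28 beside -0.03 for all genes. For B930036N10Rik, for instance, hets at 0.518 to 5.04 CPM and WT embryos at 0 to 4.45 CPM overlapped.

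Between E2.5 and E2.75 in WT embryos, 8 members were called lower and 0 higher, beside 3.64% of genes lower and 3.74% higher. The 4 largest falls were 2900060B14Rik, Gm48293, Gm10138 and 1600010M07Rik. 2900060B14Rik was 0.572 to 29.2 CPM in the 6 embryos of E2.5 and 1.33, 0 and 0 CPM in the 3 of E2.75 (log2 fold change -5.08, SE 1.42, adjusted p = 0.0367, edgeR). In nulls it stayed at 116 to 547 CPM at E2.5 and 85.1 to 174 CPM at E2.75. Gm10138, across the start of Ivns1abp, was 0.667 to 6.53 CPM and then 0.223 to 1.33 CPM in WT embryos (log2 fold change -2.49, SE 0.86, adjusted p = 0.0917), against 22.3 to 46.3 CPM and 23.1 to 56.7 CPM in nulls, where it was called up (log2 fold change 3.85 against het, SE 0.69, adjusted p = 0.00155).

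1600010M07Rik and Gm48293 differed by stage and were not called between null and het. 1600010M07Rik was 47.5 to 138 CPM at E2.5 and 8.31 to 30.4 CPM at E2.75 in WT embryos, without overlap (log2 fold change -2.47, SE 0.48, adjusted p = 0.004, edgeR), and its value between null and het was 1.06 (adjusted p = 0.316), or -0.015 with spike-in scaling. Without E2.5 Het replicate 2 it was called up between null and het (1.61, adjusted p = 0.0851, edgeR). Gm48293 was 5.01 to 18.4 CPM and then 0 to 1.01 CPM (log2 fold change -4.15, SE 1.37, adjusted p = 0.0775), and between null and het it had 1.39 (adjusted p = 0.506). With 3 WT embryos at E2.75 the count of falls was small without any one of them: 5, 3 or 1 without replicate 1, 2 or 3. The other 4 were Gm11973, Sp3os, Trmt61b and A530040E14Rik.

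**Figure D5:**
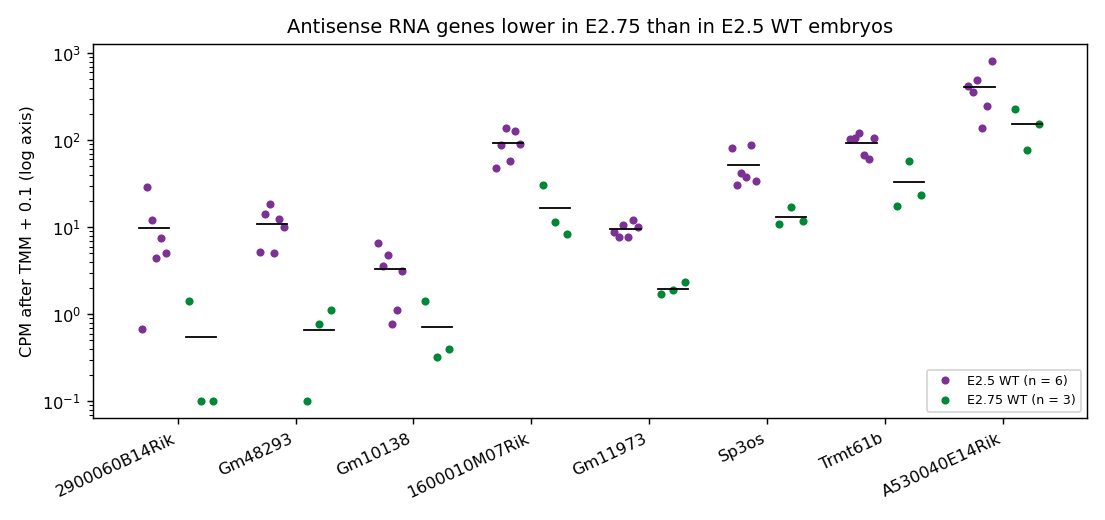
Level (CPM after TMM + 0.1, log axis) of the 8 members called lower at E2.75 than at E2.5 in WT embryos, 1 point per embryo and black lines at the means. The E2.75 embryos lie wholly below those of E2.5 for Gm48293, 1600010M07Rik, Gm11973, Sp3os and Trmt61b, and overlap them for the other 3 genes.

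The pathway that degrades such RNAs was followed through 28 listed gene names, of which 26 were tested: subunits of the exosome, its cofactors and helicase complexes, cap-binding and termination factors. Between null and het 0 were called up and 1 down, which was Dis3 itself (log2 fold change -2.06, SE 0.53, adjusted p = 0.0253, edgeR), and the median of the others was 0.12. Against WT, Dis3 was again the one called down and Zfc3h1, a subunit of the complex that targets polyadenylated RNA to the exosome, was called up (log2 fold change 1.07, SE 0.35, adjusted p = 0.0864). In WT embryos Exosc3, Mphosph6 and Papola were lower and Srrt higher at E2.75 than at E2.5. Of the names not tested, Ars2 was absent from the counts under that name, and Exosc6, an exosome subunit, had 0 counts in every embryo.

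Sequence features that the rule did not use were read from the RefSeq genome of GRCm38. AATAAA, the signal for cleavage and polyadenylation, was found on the gene's own strand in the first 1000 bases of 30.8% of members and 18.97% of coding genes tested, and on the other strand in 36.5% and 29.4%. The 1000 bases were taken from the genome whatever the length of the gene. In a shorter gene they can hold the signal of its own end, as in Kif16bos at base 584. GGTAAG, a strong 5′ splice site, was found on the own strand in 24.0% and 26.4%. It was in 15.4% of the called-up members against 29.2% of the rest, but within the 64 in 28.6% and 28%. From 250 bases before to 50 bases after the start, called-up members had a median GC content of 61.0% and 20 CpG dinucleotides, and the rest 53.0% and 8, beside 59.3% and 19 for coding genes. Within the 64 the medians were 55% and 16 against 52.5% and 7.5. AATAAA or ATTAAA stood in the last 40 bases of a transcript in 59.6% of members and 88.3% of coding genes.

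Because the RNA was captured by oligo-dT, the ends of 4 named genes are shown, as their last 60 bases with AATAAA in capitals where present: Kif16bos (chr2:142903513-142903572, plus strand), Gm10244 (chr6:39421235-39421294, plus), 4933406B15Rik (chr12:80583011-80583070, minus) and 2900060B14Rik (chr1:118458652-118458711, minus).
Kif16bos: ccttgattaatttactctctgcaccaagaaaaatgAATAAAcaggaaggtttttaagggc
Gm10244: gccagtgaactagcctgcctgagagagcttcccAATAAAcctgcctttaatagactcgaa
4933406B15Rik: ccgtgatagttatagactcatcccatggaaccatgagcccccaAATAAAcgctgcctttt
2900060B14Rik: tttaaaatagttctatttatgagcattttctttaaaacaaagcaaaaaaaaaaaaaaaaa

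The hexamer ended 19, 21 and 11 bases before the annotated end in the first 3 genes. A second annotated end of Gm10244 (chr6:39420843-39420902) has no AATAAA in its last 60 bases, nor has the end of Ppp1r18os. 2900060B14Rik has none at either of its annotated ends. The end printed is a run of 17 A's in the genome itself, whereas the other, at position 118458670, has 0 trailing A's. A genomic run of A's and a poly(A) tail both bind oligo-dT and cannot be told apart in these counts.

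POU6F1 peaks lay within 1 kb of the start in 17 of 104 members (16.3%), counting only starts with a peak in both replicates against each of 2 controls (IgG in the same cells, and anti-mCherry in cells transfected with mCherry alone), beside 21.7% of all genes tested and 24.5% of coding genes tested. Among the members called up between null and het 10 of 39 had such a peak, and among the rest 7 of 65, or 5 of 14 and 5 of 50 within the 64. The peaks are from mESCs that overexpressed the tagged factor and not from embryos. 2900060B14Rik (fold enrichment over IgG and over mCherry 13.5 and 11.01 in replicate 1, 8.27 and 5.21 in replicate 2), B930036N10Rik (15.7, 13.8, 6.78 and 5.48) and Tug1 (30.5, 14.9, 6.90 and 3.99) were among them. The starts of Alyref2 and Morc2a, 633 and 482 bases from those of B930036N10Rik and Tug1, also had such a peak, but that of Clasp1 had none. A peak in the 1 kb window of both starts cannot be assigned to either gene. The count depended on how peaks were taken, from 4 members with a -log10 q of at least 10 in every list to 53 with a peak against either control, where 61.1% of all genes tested also had one. Over IgG and over mCherry the lists held 82694 and 31348 peaks in replicate 1, and 24524 and 3630 in replicate 2. Every member with a peak in 3 of the lists lacked one in the smallest, so that list limited the count.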

How the data were processed

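RNA-seq counts of 23 single embryos and ChIP-seq peak lists of mESCs were analysed. Per the labels and the study's methods, the authors trimmed with cutadapt 3.4, mapped to GRCm38 with STAR 2.7.8a and assigned reads to genes with HTSeq 0.11.4 (intersection-strict, strand ignored). The deposited values are raw counts, whole numbers with no normalization. The deposited peak lists, made by the authors with Bowtie2 2.4.4 and MACS2 2.2.7.1 per replicate against each of 2 controls (IgG in Pou6f1-mCherry cells, list 1, and anti-mCherry in mCherry cells, list 2, per the supplement's legend), give a score, a fold enrichment as a ratio, and -log10 p and q values.

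Counts were tested with edgeR 4.0.16 (R 4.3.3; quasi-likelihood, TMM, filterByExpr) across all genes, with Benjamini-Hochberg adjustment. The 23 embryos entered 1 fit with stages merged by genotype, each stage was also fitted alone, and stage contrasts came from a fit with a mean per stage and genotype. A call required a log2 fold change past 1 in size and an adjusted p below 0.1, after the study's methods. SEs are those implied by the test. The fits were tested on simulated data. ERCC counts and summary lines stayed out of library sizes. Reads outside exons were 20.99% to 43.9% and ambiguous reads 1.89% to 2.73% of a library. At these depths 3 counts, the limit that a count of 0 allows, correspond to 0.214 to 1.77 CPM, for counting error only.

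Named genes were the 8 largest rises and up to 6 largest falls between null and het, the 4 highest means, listed RNAs with known roles, the 4 largest changes in each further comparison, the genes next to the minimum, and sense partners. The members, lists and tests were chosen with earlier results of these data known. GENCODE vM21 holds 55141 of the 55487 gene identifiers. Alternatives were DESeq2 1.42.0, no filter on low counts, spike-in scaling, each embryo left out, a replicate block, stage as a covariate and other membership limits. Whether embryos were littermates is not given, so p-values measure the spread between these embryos.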

Additional observations from a re-analysis of the deposited data

Results flagged for a closer look

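Of 51 groups of 4 to 6 embryos examined for the 17 named members, 10 held 1 embryo that stood apart by Dixon's criterion. Each group held the embryos of 1 stage and genotype. Chance alone meets the criterion in about 1 of 20 groups where values spread normally. Many flagged groups lay near 0 CPM, where a few reads can meet it, so no excess over chance is read from the count. E2.5 WT replicate 5 had 1.85 CPM of Ppp1r18os (others 0 to 0.667 CPM) and 1.03 CPM of AC090479.2 (others 0 to 0.290 CPM). E2.75 Het replicate 2 had 1.21 CPM of Kif16bos (others 0 to 0.211 CPM), 3.01 CPM of 2900060B14Rik (others 0 to 0.0647 CPM) and 5.73 CPM of Gm10244 (others 0.887 to 1.27 CPM). The same embryo had the lowest Dis3 level of the hets, 30.4 CPM, and also their lowest depth, 3009380 gene counts. At that depth 3 counts correspond to 0.997 CPM. A link of these values to depth or to Dis3 was not tested. AC132307.3 had 2.78 CPM in E2.5 WT replicate 4 (others 0 to 0.291 CPM) and 3.32 CPM in E2.75 Het replicate 3 (others 0 to 0.211 CPM), the second of which exceeded the lowest null at 2.55 CPM.

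4933406B15Rik reached 149 CPM in E2.5 WT replicate 6 (others 23.8 to 61.7 CPM), the WT embryo whose Dis3 level of 18.0 CPM lay in the range of the nulls. Gm10138 was 46.3 CPM in E2.5 Null replicate 4 (others 22.3 to 24.5 CPM), and Appbp2os was 9.44 CPM in E2.5 WT replicate 2 (others 0 to 3.39 CPM).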

How the results depend on the processing

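The 39 members called up between null and het were 52 with DESeq2, 38 without a filter on low counts, 26 with spike-in scaling and 42 with stage as a covariate, and 39, 38, 26 and 38 of the 39 were among them. They were 34 without the 2 null libraries of lowest depth, an alternative chosen after seeing the data. Membership moved the count most: 14 at 5 CPM over the WT and het embryos, 13 at 5 CPM over WT embryos alone (also chosen after seeing the data), 24 at 10 CPM and 65 at 2 CPM. With spike-in scaling 8 members fell in place of 1, and the values of A530040E14Rik (-0.59), Tug1 (-0.31) and 1600010M07Rik (-0.015) turned negative.

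At E2.5, where 0 members were called against het, 28 rose and 1 fell with DESeq2, 2 rose without a filter, 4 rose and 3 fell with spike-in scaling, and 12 rose and 1 fell with WT in place of het. At E2.75 the 31 rises were 48 with DESeq2, and spike-in scaling gave 2 falls. The difference between stages had 1 call without a filter. Between the stages of WT embryos, rises were 2 with DESeq2, 1 without a filter and 2 with spike-in scaling, and the 8 falls were 16, 5 and 2. The cause of these shifts was not tested. Starts with a POU6F1 peak numbered 10 within 250 bp, 53 with either control and 4 at a -log10 q of at least 10.

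Leaving out 1 embryo gave 34 to 41 rises and 1 fall against het, 29 to 37 rises and 1 fall against WT, 0 calls between het and WT, at E2.5 and for the difference between stages, 12 to 31 rises and 0 to 1 falls at E2.75 (0 without E2.75 Null replicate 2), and 0 to 1 rises and 1 to 9 falls between the stages of WT embryos (5 without E2.5 WT replicate 2 or 5).

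Same-numbered embryos did not deviate together (correlations of -0.07 to 0.04 in 5 pairs), so the numbers do not pair them. With a replicate block 23 members rose against het (22 of the 39), 6 rose and 0 fell at E2.75, and 0 fell between the stages of WT embryos. Of 340 alternatives for 17 named members, 327 kept direction and side of the threshold, 5 lost a call, 5 gained one and 3 turned. The gained calls were those of Appbp2os (DESeq2 and stage as a covariate), Kcnq1ot1 (block and stage as a covariate) and 1600010M07Rik (without E2.5 Het replicate 2). Gm9725 lost its call under the block and without the 2 null libraries of lowest depth. Depth limits genes near 0: a count of 0 allows up to 1.77 CPM in the smallest library.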

Other observations

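Genes of other non-coding biotypes were also called up in nulls. Between null and het, 25 of 55 bidirectional promoter lncRNA genes tested were called up, 72 of 389 lincRNA genes, 31 of 171 processed transcripts, 52 of 448 genes awaiting experimental evidence (TEC) and 31 of the 245 antisense genes tested that were not members, beside 183 of 11213 coding genes (1.63%). The biotypes were not tested against each other.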
